A study of Mus musculus with 4 samples.

Results

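The endocytosis machinery was examined as 34 genes, all of them found among the 55450 genes of the deposited feature lists. The genes were taken by symbol for their known role, and the list was made with earlier results of these data known. They encode the clathrin coat (Clta, Cltb and Cltc), the AP2 adaptor (Ap2a1, Ap2a2, Ap2b1, Ap2m1 and Ap2s1), the dynamins (Dnm1, Dnm2 and Dnm3) and the caveolar proteins (Cav1, Cav2, Cavin1 and Cavin2). They further encode clathrin accessory proteins (Eps15, Epn1, Epn2, Picalm, Dab2 and Itsn1), BAR-domain proteins (Bin1, Amph, Sh3gl1 and Snx9), endosomal proteins (Rab5a, Rab5c, Rab7, Rab11a, Eea1 and Ehd1), the flotillins Flot1 and Flot2, and the small GTPase Arf6. The 34 genes took 0.224% of all UMIs of the cells kept from the intestine of mice given NPs and 0.191% of those from untreated intestine. In the brain they took 0.336% in NPs and 0.322% in untreated cells.

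Cells take up membrane, receptors and particles by several routes. In the clathrin route AP2 binds cargo and lipid at the plasma membrane, clathrin triskelia assemble into a cage around the bud, accessory and BAR-domain proteins bend the membrane, and a dynamin ring cuts the neck. Caveolae are small flask-shaped pits built from caveolins and held in shape by cavins, and they are known to be abundant in endothelium, smooth muscle and adipocytes. Vesicles from either route fuse with early endosomes marked by Rab5 and its tether Eea1, from which cargo goes back to the surface through Rab11 and Ehd1 or on to lysosomes through Rab7.

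Single-cell transcriptomes of wild-type (WT) mice were measured in 4 droplet libraries, with 1 library per group. The groups were intestine of mice given NPs for 1 week, intestine of untreated mice, brain of mice given NPs for 2 months and brain of untreated mice. The labels do not spell out NPs, do not give the number of animals per library, and name BALB/c mice aged 5 weeks and ICR mice aged 6 months without assigning a strain or age to a library. With 1 library per group no difference could be tested, so values carry intervals that cover counting error only, and strain, age, animal and library cannot be told apart from the NPs treatment. Levels are CPM, the UMIs of a gene summed over a cell class of 1 library and scaled to a common total, with an exact 95% Poisson interval in brackets; 3' libraries count 1 tag per transcript, so genes were compared without dividing by length.

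The libraries held 19918 (NPs) and 20368 (untreated) intestinal barcodes with 127772838 and 116394801 UMIs, and 12226 (NPs) and 11754 (untreated) brain barcodes with 63889853 and 70594935 UMIs. After filtering 10556 NPs and 16855 untreated intestinal cells and 11942 NPs and 11333 untreated brain cells were kept. Clusters that met no class name held 1068 NPs (10.1%) and 3245 untreated (19.3%) intestinal cells, and 15 NPs and 14 untreated brain cells. These cells were left out of the classes. The 2 intestinal libraries stood apart from each other. More than 20% mitochondrial UMIs were found in 46.5% of NPs and 16.7% of untreated intestinal barcodes, the kept cells had median depths of 6277 and 2464 UMIs, and posterior Hox genes, which mark position along the gut, made up 9.80% of Hox UMIs in NPs and 77.2% in untreated intestine. Nearly all absorptive and goblet cells of the 2 libraries fell into different clusters, so comparisons of these classes also compare clusters. Enteroendocrine cells of both libraries fell into the same cluster. The brain libraries shared nearly all clusters and had 0.278% (NPs) and 0.681% (untreated) of barcodes over the mitochondrial limit. Pairs of libraries shared 35 to 104 barcodes, at most 0.605% of the smaller library. Cell class names stand for likeness to marker genes, and nearly every class had all its own markers at 10 CPM or more in each library with at least 20 of its cells. Cells of the libraries are called NPs cells and untreated cells. The labels call the gut tissue intestine while the series text speaks of colon and immune cells, and the markers found were those of both epithelium and immune cells.

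Summed over the 34 genes, endothelial cells, oligodendrocytes, microglia, border-associated macrophages and untreated neurons carried the most endocytosis transcripts and plasma cells the fewest. Endothelial cells held 5311 CPM in NPs and 5258 CPM in untreated brain, and 5198 CPM in NPs intestine, where the untreated library had none of them. Microglia, the resident phagocytes of brain tissue, held 4084 CPM in NPs and 4168 CPM in untreated brain. Border-associated macrophages, which line the vessels and membranes around the brain, held 4353 CPM (37 NPs cells) and 5076 CPM (53 untreated cells). Oligodendrocytes held 4624 CPM in NPs and 4851 CPM in untreated brain, and neurons 4515 CPM in 27 untreated cells. Other neural and phagocytic classes of the brain held less. Astrocytes had 2268 CPM in NPs and 2196 CPM in untreated cells, and neuroblasts 2292 CPM in NPs and 2458 CPM in untreated cells. Neutrophils had 2369 CPM in NPs and 2632 CPM in untreated cells. Intestinal macrophages held 3260.0 CPM in 326 NPs cells, while only 16 untreated cells took that name, too few for a level. Another 58 untreated cells, in a cluster with Lyz2, Il1b, Tyrobp, C1qa and C1qb among its leading genes, stayed unnamed with under 3 markers. Absorptive epithelium, the cells facing the gut lumen, held 2298 CPM in NPs and 2156 CPM in untreated intestine, and plasma cells 815 CPM in NPs and 876 CPM in untreated intestine. In plasma cells immunoglobulin genes took 52.9% of UMIs in NPs and 41.6% in untreated cells, so all other genes there share the rest of the total. A higher CPM in a class can come from more RNA of the gene or less of others, which CPM alone cannot tell apart.

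A gene was called high in a class when it stood at least 4-fold above the median class, with 5 CPM added to both and at least 20 UMIs, in each library with at least 20 cells of the class. By this rule 14 of the 34 genes were high in at least 1 of the brain classes and 7 in at least 1 of the intestinal classes. Brain endothelial cells had 6 of 31 measured members high (background of all genes 8.42%), oligodendrocytes 4 of 19 measured members (17.1%), neurons 3 of 24 measured members (25.2%), neutrophils 2 of 8 measured members (32.5%) and pericytes or smooth muscle 2 of 15 measured members (19.8%). Ependymal cells had 2 of 24 measured members high (19.4%). Microglia had 1 of 31 measured members high (3.96%), border-associated macrophages 1 of 16 (14.7%), choroid plexus epithelium 1 of 18 (11.3%) and brain fibroblasts 1 of 6 (19.2%). In the intestine endothelial cells had 6 of 24 measured members high (12.8%), fibroblasts 4 of 20 measured members (12%) and macrophages 1 of 26 measured members (7.84%). The shares were above the background in both endothelial classes and intestinal fibroblasts, and near or below it in neurons, neutrophils, pericytes and ependymal cells. No member was high of 26 measured in absorptive epithelium (0.882%), 28 in goblet cells (1.29%), 22 in intestinal T cells (4.85%), 32 in astrocytes (6.35%), 28 in neuroblasts (7.97%) or 21 in brain T cells (8.16%). The same held for 18 measured in enteroendocrine cells (2.91%), 28 in crypt progenitors (1.25%), 23 in mast cells (2.59%), 26 in intestinal B cells (2.15%) and 18 in plasma cells (2.48%). None was high of 12 measured in brain B cells (13.6%), 11 in intestinal NK cells (10.2%), 10 in brain monocytes (19.6%), 7 in intestinal dendritic cells (11.6%) and 2 in plasmacytoid dendritic cells (20.1%). So few measured members do not show that the genes are low there.

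**Figure D1:**
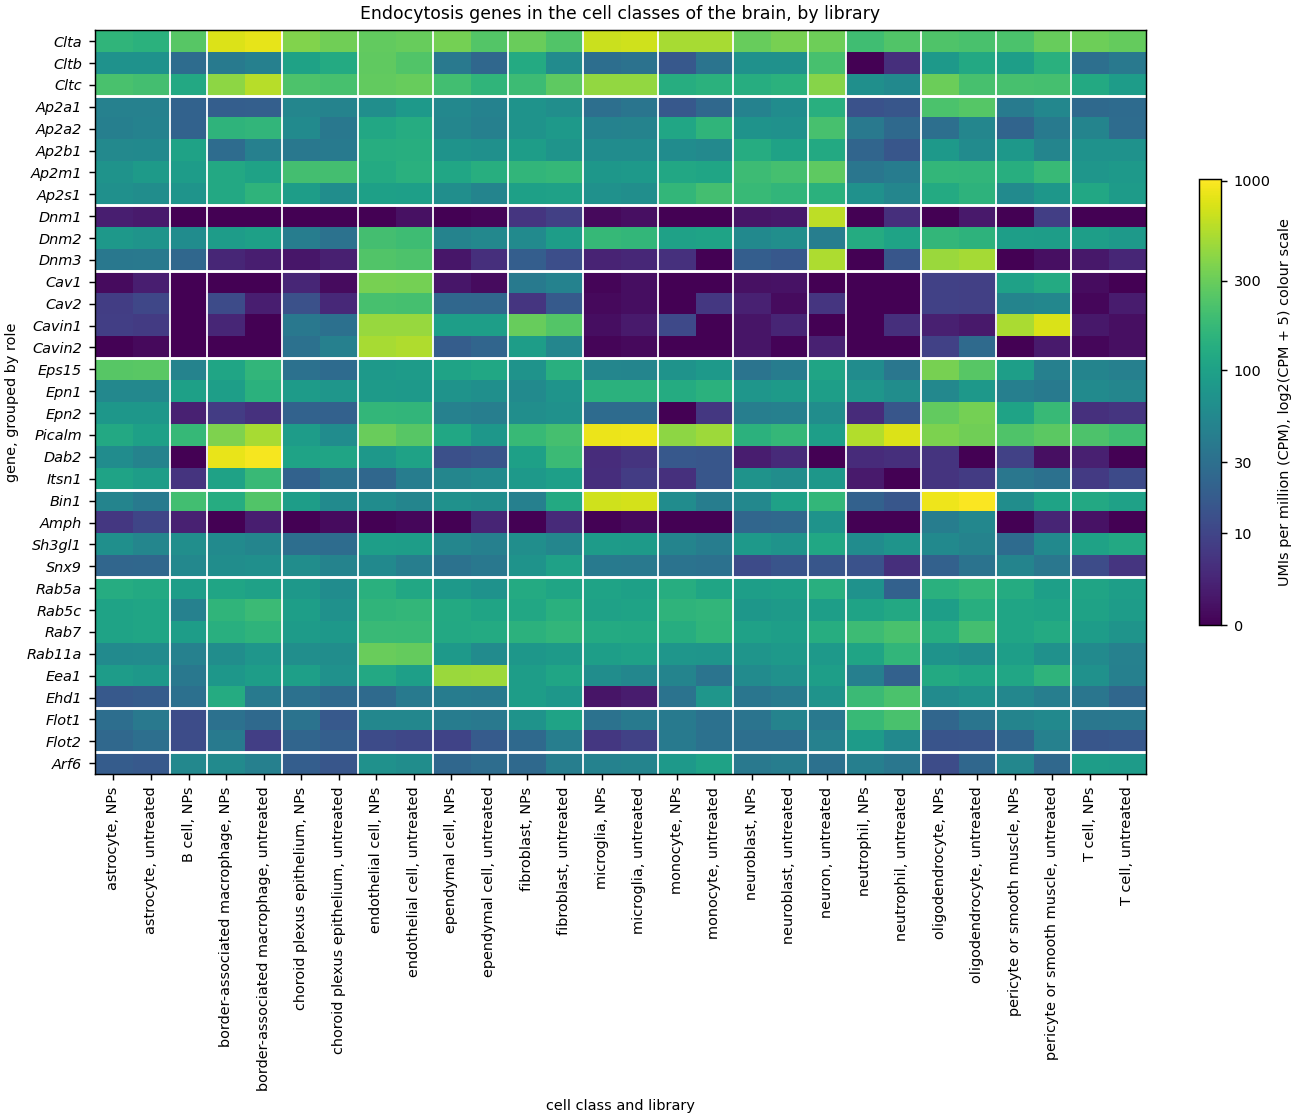
Levels of the 34 genes (rows, grouped by role) in each brain cell class and library (columns, NPs left of untreated where both have a level), in CPM on a log2(CPM + 5) colour scale. Clta, Picalm and Bin1 are bright in microglia, Dab2 in border-associated macrophages, the caveolar genes in endothelial cells and Eea1 in ependymal cells, alike in both libraries.

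Clta and Cltc were found in every class, while Cltb was nearly missing from some. Clta, the light chain A gene (ENSMUSG00000028478, chr4:44004452-44032846, plus strand, GRCm38), was highest in macrophage-like cells. It reached 764 CPM (661 to 879.7) in NPs and 838 CPM (745 to 939) in untreated border-associated macrophages and 664 CPM (656 to 673) in NPs and 689 CPM (679 to 698) in untreated microglia. NPs intestinal macrophages had 744 CPM (699.9 to 789.8), and astrocytes were lowest in the brain with 158 CPM in NPs and 146 CPM in untreated cells. Cltc, the heavy chain that forms the legs of the triskelion, followed the same classes: 427 CPM in NPs and 431 CPM in untreated microglia, 414 CPM in NPs and 573 CPM in untreated border-associated macrophages, and 289 CPM in NPs intestinal macrophages. The intervals of Cltc in the 2 brain macrophage-like classes overlapped in NPs cells but not in untreated cells, where border-associated macrophages were higher. The larger border-associated cluster alone had 240 CPM (179 to 316) in 29 NPs cells and 383 CPM (314 to 463) in 43 untreated cells. The untreated excess over microglia was therefore not seen in that cluster.

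Cltb, the light chain B gene, had another order. It met the 4-fold rule in no class, and its larger levels were in vessels and epithelium, with 273 CPM (248 to 301) in NPs and 235 CPM (215 to 256) in untreated brain endothelial cells, 172 CPM (136 to 215) in NPs intestinal endothelial cells, 205 CPM in NPs and 125 CPM in untreated goblet cells and 165 CPM in NPs and 114 CPM in untreated absorptive epithelium. Myeloid cells held little of it: 29.3 CPM in NPs and 31.8 CPM in untreated microglia, and in neutrophils 0 NPs UMIs, which allows up to 7.06 CPM at 3 counts, and 1 untreated UMI. The share of Cltb among light-chain UMIs was 49.3% (45.9 to 52.8) in NPs and 44.8% (41.9 to 47.7) in untreated brain endothelial cells. In microglia it was 4.22% (3.96 to 4.49) in NPs and 4.42% (4.14 to 4.71) in untreated cells, and in NPs intestinal macrophages 6.47%. Goblet cells held 39.2% in NPs and 33.6% in untreated intestine, and astrocytes 30.6% in NPs and 32.3% in untreated brain. These shares do not depend on the total of the class, and brackets after a share give its exact 95% binomial interval.

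Of the AP2 subunits Ap2a1 alone met the 4-fold rule in a class. Ap2a1, which encodes alpha A, peaked in oligodendrocytes, the myelin-forming cells, with 221 CPM (173 to 278) in NPs and 245 CPM (214 to 279.8) in untreated cells, and reached 139 CPM in untreated neurons. Microglia had 29.9 CPM in NPs and 34.4 CPM in untreated cells. Ap2a2, which encodes alpha C, was highest in border-associated macrophages with 154 CPM in NPs and 162 CPM in untreated cells, in monocytes with 111 CPM in NPs and 157 CPM in untreated cells and in untreated neurons with 214 CPM. Ap2a1 thus made up 88.0% (79.0 to 94.1) of alpha-chain UMIs in NPs and 82.2% (77.1 to 86.6) in untreated oligodendrocytes. In border-associated macrophages it made up 11.4% (3.79 to 24.6) in NPs and 10.9% (4.51 to 21.2) in untreated cells, and in astrocytes 51.3% in NPs and 49.8% in untreated cells. Ap2m1, the cargo-binding mu chain, was highest in untreated neurons (268 CPM), choroid plexus epithelium (205 CPM in NPs and 206 CPM in untreated cells) and neuroblasts (186 CPM in NPs and 210.1 CPM in untreated cells). Ap2b1, the beta chain, ranged from 23.5 to 134 CPM and Ap2s1, the small chain, from 58.6 to 177 CPM over NPs brain classes.

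Each dynamin had its own cell classes. Dnm1, the dynamin of nerve terminals (ENSMUSG00000026825, chr2:32308471-32353338, minus strand), was high in untreated neurons, with 595 CPM (514 to 687) from 189 UMIs in 27 cells; the 12 NPs neurons were too few for a level. Outside neurons it stayed under 10 CPM in every brain class. In the intestine fibroblasts stood out with 51.3 CPM (40.8 to 63.7) in NPs and 64.8 CPM (41.1 to 97.3) in untreated cells, and all other classes were under 10 CPM. Dnm3, known mainly from neurons, was high in oligodendrocytes with 454 CPM (384 to 533) in NPs and 497 CPM (452 to 545) in untreated cells and in brain endothelial cells with 234 CPM (210.2 to 259.9) in NPs and 225 CPM (206 to 246) in untreated cells. Untreated neurons had 532 CPM, and the intervals of neurons and oligodendrocytes overlapped. Microglia had 3.57 CPM in NPs and 4.02 CPM in untreated cells. Dnm2, the widely expressed dynamin, ranged from 42.9 to 205 CPM over NPs brain classes and from 31.9 to 190.2 CPM over untreated ones.

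In terms of shares, Dnm3 supplied 73.5% (66.9 to 79.4) of dynamin UMIs in NPs and 76.5% (72.9 to 79.9) in untreated oligodendrocytes, and 53.3% in NPs and 54.1% in untreated brain endothelial cells. Dnm2 supplied 97.6% in NPs and 96.9% in untreated microglia. In untreated neurons Dnm1 supplied 50.8%, Dnm3 45.4% and Dnm2 3.76%. Intestinal fibroblasts took 42.7% of their dynamin UMIs from Dnm1 in NPs and 50.0% in untreated tissue. Within that class the genes split by cluster: Dnm1 had 90.1 CPM in NPs and 109.5 CPM in untreated cells of the deeper cluster, and 11.4 CPM in NPs and 12.3 CPM in untreated cells of the shallower one, in which 6 of 9 absorptive markers also stood at least 2-fold above the median cluster.

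**Figure D2:**
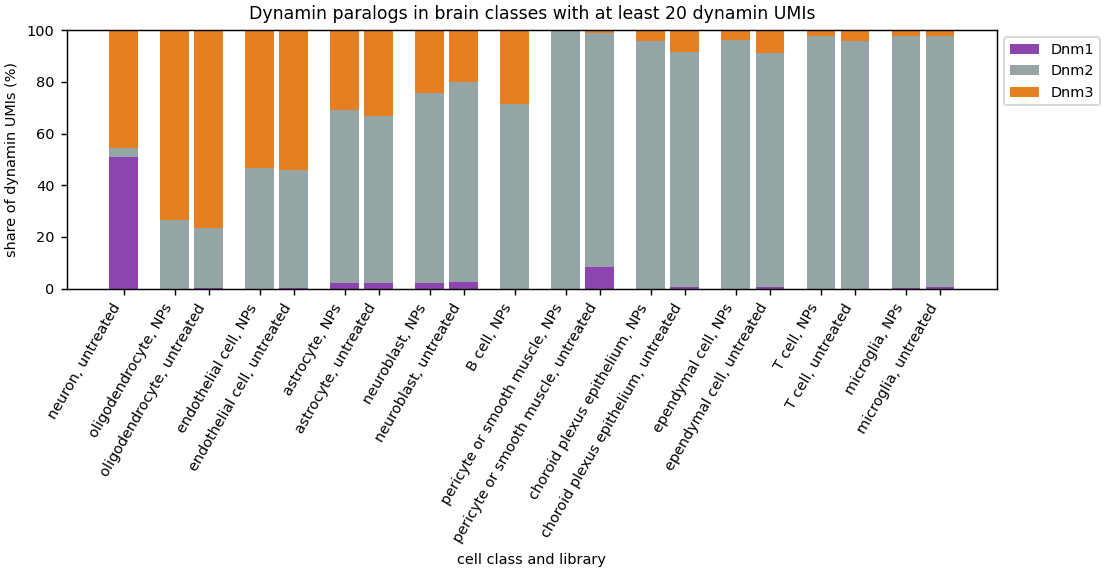
Share of dynamin UMIs (%) from Dnm1, Dnm2 and Dnm3 in each brain class with at least 20 dynamin UMIs, NPs bar left of the untreated bar. Neurons are split between Dnm1 and Dnm3, oligodendrocytes and endothelial cells hold more Dnm3 than Dnm2, and microglia, ependymal and T cells hold mostly Dnm2.

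Cav1, Cav2, Cavin1 and Cavin2 were high in few classes, endothelium first. Cav1 and Cav2, which encode caveolins, lie next to each other on the same strand (Cav1 ENSMUSG00000007655, chr6:17306335-17341452, plus strand; Cav2 ENSMUSG00000000058, chr6:17281185-17289115, plus strand), while Cavin1, the cavin that assembles caveolae, is at chr11:100956733-100970887 and Cavin2, which shapes them, at chr1:51289126-51302960. Their promoters are shown because the 4 genes were high together in endothelium yet parted in other classes. Each sequence runs from 250 bases before to 50 after the start of transcription, in RefSeq for GRCm38.p6, with CG pairs in capitals; where RefSeq lists 2 starts the first is given. The windows are chr6:17306085-17306384 (Cav1, plus strand), chr6:17280935-17281234 (Cav2, plus), chr11:100970568-100970867 (Cavin1, minus) and chr1:51288876-51289175 (Cavin2, plus).
Cav1: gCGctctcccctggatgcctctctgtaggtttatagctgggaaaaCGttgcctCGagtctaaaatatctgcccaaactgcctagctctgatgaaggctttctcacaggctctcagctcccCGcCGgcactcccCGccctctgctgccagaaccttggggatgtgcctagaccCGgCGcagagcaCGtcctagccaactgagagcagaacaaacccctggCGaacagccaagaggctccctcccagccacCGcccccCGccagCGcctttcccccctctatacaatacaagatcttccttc
Cav2: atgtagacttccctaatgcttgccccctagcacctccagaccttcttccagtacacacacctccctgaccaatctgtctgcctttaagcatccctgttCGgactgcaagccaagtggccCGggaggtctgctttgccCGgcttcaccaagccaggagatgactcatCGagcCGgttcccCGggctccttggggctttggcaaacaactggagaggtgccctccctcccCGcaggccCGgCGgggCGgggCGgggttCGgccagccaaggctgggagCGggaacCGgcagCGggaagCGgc
Cavin1: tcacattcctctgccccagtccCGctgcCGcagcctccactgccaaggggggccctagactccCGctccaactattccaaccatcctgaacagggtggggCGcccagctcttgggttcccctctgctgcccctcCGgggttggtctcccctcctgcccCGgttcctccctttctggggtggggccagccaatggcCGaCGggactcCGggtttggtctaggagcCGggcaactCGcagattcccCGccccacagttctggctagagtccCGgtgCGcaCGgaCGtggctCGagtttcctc
Cavin2: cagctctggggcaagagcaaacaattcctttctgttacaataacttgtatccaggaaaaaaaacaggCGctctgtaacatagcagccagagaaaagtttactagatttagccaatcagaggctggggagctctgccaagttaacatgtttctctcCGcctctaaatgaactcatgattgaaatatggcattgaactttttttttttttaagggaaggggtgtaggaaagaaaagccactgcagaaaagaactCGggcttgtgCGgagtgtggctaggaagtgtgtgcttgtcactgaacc
They hold 13 (Cav1), 16 (Cav2), 17 (Cavin1) and 4 (Cavin2) CG pairs. Of 32851 RefSeq promoters of the same length, 37.9%, 33.0%, 31.4% and 68.6% hold at least as many, and the median promoter holds 7. CG pairs read the same on both strands, and the count is a description of the window only.

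Brain endothelial cells, which form the blood-brain barrier, had 337 CPM (308 to 368) in NPs and 329 CPM (305 to 354) in untreated cells for Cav1 and 212 CPM (189 to 237) in NPs and 208 CPM (189 to 228) in untreated cells for Cav2. Cavin1 stood at 442 CPM (409 to 476) in NPs and 444 CPM (416 to 472) in untreated cells and Cavin2 at 504 CPM (468 to 541) in NPs and 533 CPM (503 to 565) in untreated cells, so for each of the 4 genes the intervals of the 2 libraries overlapped. NPs intestinal endothelial cells had 769 CPM (689.7 to 854) of Cav1, 139 CPM (106 to 178) of Cav2, 503 CPM (439 to 573) of Cavin1 and 807 CPM (726 to 894) of Cavin2. That is more Cav1 and Cavin2 and less Cav2 than in brain endothelium, with intervals that do not overlap, though tissue and library cannot be told apart. The intestinal endothelial cluster also carried lymphatic genes, Ccl21a among its leading ones.

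Outside endothelium the 4 genes parted. Pericytes or smooth muscle, the contractile cells of the vessel wall, had 519 CPM (428 to 623) in NPs and 746 CPM (689 to 807) in untreated cells for Cavin1, so their interval overlapped that of endothelial cells in NPs brain and lay above it in untreated brain. Their Cav1 stood at 99.2 CPM in NPs and 124 CPM in untreated cells, but Cavin2 was at or near 0, with 0 UMIs in NPs cells, which allows up to 13.5 CPM at 3 counts, and 2.40 CPM in untreated cells. Cavin2 made up 0% (0 to 3.16) of cavin UMIs there in NPs and 0.321% (0.0389 to 1.15) in untreated cells, against 53.3% (50.6 to 55.9) in NPs and 54.6% (52.5 to 56.7) in untreated brain endothelial cells. Brain fibroblasts had 292 CPM in NPs and 243 CPM in untreated cells for Cavin1, 90.7 CPM in NPs and 52.0 CPM in untreated cells for Cavin2 and 38.9 CPM in NPs and 47.7 CPM in untreated cells for Cav1. Ependymal cells, which line the ventricles, had 94.7 CPM in NPs and 94.1 CPM in untreated cells for Cavin1 and 1.89 CPM in NPs and 0.811 CPM in untreated cells for Cav1. Intestinal fibroblasts had 276 CPM in NPs and 209 CPM in untreated cells for Cavin1, 110.1 CPM in NPs and 84.6 CPM in untreated cells for Cavin2 and 54.4 CPM in NPs and 76.1 CPM in untreated cells for Cav1, with 2 NPs and 0 untreated UMIs of Cav2. Most of these fibroblasts (269 NPs and 98 untreated cells) were in the shallower cluster. It had 59.7 CPM in NPs and 61.3 CPM in untreated cells for Cavin1, and 12.7 and 18.4 CPM for Cavin2. The deeper cluster had 486 CPM in NPs and 334 CPM in untreated cells for Cavin1, and 205 and 141 CPM for Cavin2.

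A Cav1 UMI was found in 63.6% (57.6 to 69.2) of NPs and 70.3% (65.3 to 74.9) of untreated brain endothelial cells, against 0.198% of NPs and 0.546% of untreated microglia. Median depths were 4068 and 4712 UMIs in NPs and untreated endothelial cells and 4706 and 4939.5 UMIs in NPs and untreated microglia. With every cell thinned to 2000 UMIs the endothelial shares were 45.6% in NPs and 43.1% in untreated cells. For Cavin2 they were 74.3% in NPs and 78.1% in untreated endothelial cells, or 59.1% and 58.5% when thinned.

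**Figure D3:**
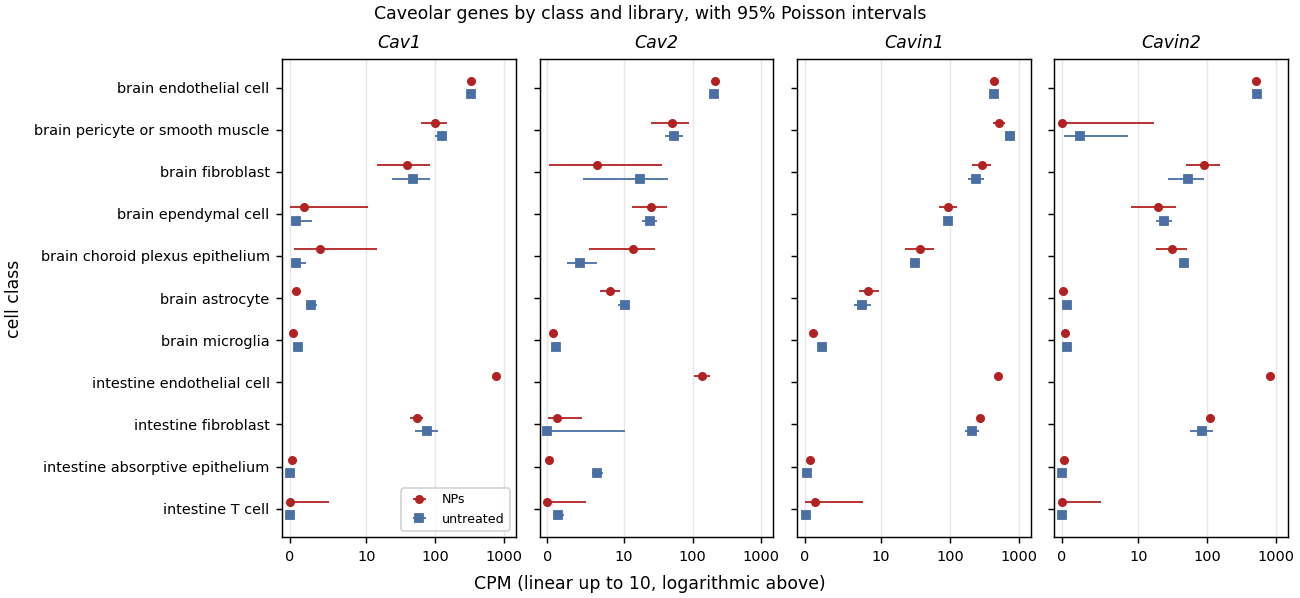
CPM of Cav1, Cav2, Cavin1 and Cavin2 (axis linear up to 10 and logarithmic above) by class, NPs as circles above untreated as squares, bars giving exact 95% Poisson intervals. All 4 genes are high in endothelial cells, Cavin2 drops out of pericytes or smooth muscle, and the untreated intestine had no endothelial cells.

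Among the clathrin accessory genes Picalm and Dab2 had their largest levels in different phagocytes, and Dab2 met the 4-fold rule while Picalm did not. Picalm, which brings clathrin and AP2 together and sets vesicle size (ENSMUSG00000039361, chr7:90130213-90213465, plus strand), was highest in microglia with 867 CPM (857 to 877) in NPs and 886 CPM (875 to 897) in untreated cells. Neutrophils followed with 553 CPM in NPs and 761 CPM in untreated cells, with an interval below that of microglia in NPs brain and overlapping it in untreated brain. NPs intestinal macrophages had 334 CPM, and choroid plexus epithelium the least in the brain with 89.7 CPM in NPs and 61.1 CPM in untreated cells. Dab2, an adaptor for lipoprotein receptors and integrins (ENSMUSG00000022150, chr15:6299788-6440712, plus strand), was instead low in microglia, with 4.80 CPM (4.08 to 5.60) in NPs and 6.16 CPM (5.28 to 7.15) in untreated cells, and high in border-associated macrophages, with 859 CPM (749 to 981) in NPs and 955 CPM (855 to 1063) in untreated cells. The larger border-associated cluster alone had less Dab2, with 438 CPM (353 to 536) in NPs and 623 CPM (534 to 723) in untreated cells. A Dab2 UMI was present in 81.1% (64.8 to 92.0) of NPs and 90.6% (79.3 to 96.9) of untreated border-associated macrophages. The same share was 2.17% of NPs and 2.95% of untreated microglia, and 1.19% of NPs and 0% of untreated brain T cells, where 0 cells allow a share of cells with a UMI of up to 1.65% and set no limit on cells expressing the gene. Median depths were 6274 UMIs in NPs and 6274 UMIs in untreated border-associated macrophages and 4005 UMIs in NPs and 3888 UMIs in untreated T cells. Thinned to 2000 UMIs, border-associated macrophages gave 54.5% in NPs and 72.9% in untreated cells.

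Dab2 was also high in choroid plexus epithelium, which secretes cerebrospinal fluid, with 105 CPM in NPs and 108 CPM in untreated cells, and in brain endothelial cells with 80.0 CPM in NPs and 102 CPM in untreated cells. In NPs intestine it was high in macrophages at 216 CPM (193 to 242) and endothelial cells at 168 CPM (132 to 210.1). Among NPs intestinal macrophages a cluster with Ccl8, Ccl7 and Ccl2 among its leading genes held 462 CPM of Dab2, 233 CPM of Ap2a2 and 529 CPM of Cltc. A cluster without these chemokines among its leading genes, and of similar depth, held 169, 68.6 and 206 CPM of the same genes (4571 and 4646 UMIs per cell). C1qa was among the leading genes of both clusters. Among astrocytes, the glia around synapses and vessels, Dab2 had 126 CPM in NPs and 107 CPM in untreated cells of cluster 8, and 16.2 CPM in NPs and 18.1 CPM in untreated cells of cluster 0.

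Eps15, a scaffold of the coat's rim, was highest in oligodendrocytes (339 CPM in NPs and 254 CPM in untreated cells) and astrocytes (254 CPM in NPs and 258 CPM in untreated cells). In astrocyte cluster 10 it reached 511 CPM in NPs and 522 CPM in untreated cells, together with 177 CPM in NPs and 170.0 CPM in untreated cells for Epn2. Epn1 and Epn2 encode epsins, which insert into and curve the membrane. Epn1 stood at 143 CPM in NPs and 144 CPM in untreated microglia and 138 CPM in NPs and 98.1 CPM in untreated absorptive epithelium. Epn2 was high in oligodendrocytes (281 CPM (227 to 345) in NPs and 333 CPM (296 to 372) in untreated cells) and, in NPs intestine, in endothelial cells (55.9 CPM). It made up 83.8% of epsin UMIs in NPs and 80.7% in untreated oligodendrocytes, against 16.01% in NPs and 15.96% in untreated microglia. Itsn1, a scaffold that brings in dynamin and actin regulators, was highest in astrocytes (105 CPM in NPs and 91.5 CPM in untreated cells) and border-associated macrophages (102 CPM in NPs and 179.5 CPM in untreated cells), and near its lowest in microglia (4.98 CPM in NPs and 7.80 CPM in untreated cells). The larger border-associated cluster alone had 37.6 CPM of Itsn1 in NPs and 104 CPM in untreated cells.

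Bin1 was high in oligodendrocytes and microglia. It encodes amphiphysin 2, known for membrane tubules and for a link to late-onset Alzheimer's disease. Oligodendrocytes had 893 CPM (794 to 1001) in NPs and 987 CPM (923 to 1054) in untreated cells and microglia 699 CPM (690.0 to 708) in NPs and 722 CPM (712 to 732) in untreated cells, several times the next classes in both libraries. A Bin1 UMI was present in 91.0% (90.3 to 91.7) of NPs and 90.6% (89.8 to 91.3) of untreated microglia, or 73.4% and 75.6% when thinned to 2000 UMIs. In the intestine it was highest in lymphocytes: untreated B cells had 129.9 CPM (123 to 137), T cells 81.1 CPM in NPs and 73.1 CPM in untreated cells and NK cells 84.2 CPM in NPs and 93.7 CPM in untreated cells, against 2.89 CPM in NPs and 3.94 CPM in untreated absorptive epithelium. Amph, amphiphysin 1 of nerve terminals, was highest in untreated neurons (72.5 CPM), oligodendrocytes (42.4 CPM in NPs and 54.2 CPM in untreated cells) and neuroblasts (24.2 CPM in NPs and 25.1 CPM in untreated cells), and stayed under 10 CPM in every intestinal class. Sh3gl1 (endophilin A2) and Snx9, which bind dynamin at the neck, were spread broadly: Sh3gl1 ranged from 27.1 to 103 CPM over NPs and from 27.9 to 120.1 CPM over untreated brain classes. Snx9 stood at 63.0 CPM in NPs and 65.5 CPM in untreated border-associated macrophages and at 12.4 CPM in NPs and 6.39 CPM in untreated brain T cells.

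**Figure D4:**
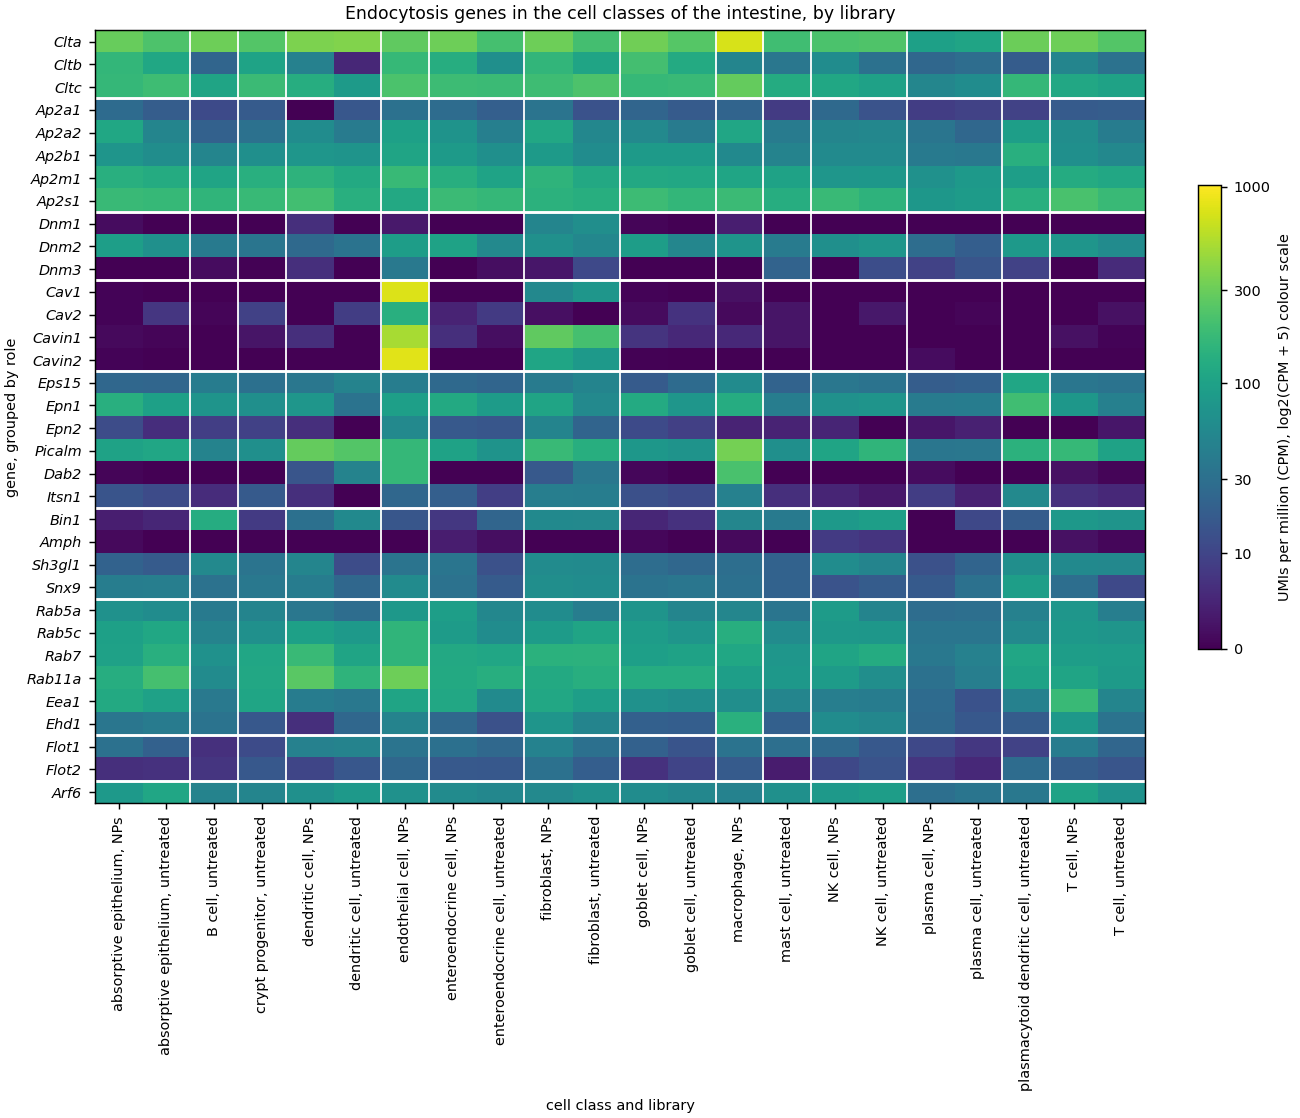
Levels of the 34 genes (rows, grouped by role) in each intestinal cell class and library (columns, NPs left of untreated where both have a level), in CPM on a log2(CPM + 5) colour scale. The caveolar genes are bright in NPs endothelial cells and in fibroblasts of both libraries, Clta in NPs macrophages, and plasma cells are dark for nearly all genes. Immunoglobulin genes take 52.9% of UMIs in NPs and 41.6% in untreated plasma cells.

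Eea1 was high in ependymal cells, whose beating cilia move cerebrospinal fluid. Eea1, the tether of early endosomes (ENSMUSG00000036499, chr10:95940650-96045518, plus strand), had 459 CPM (403 to 520.1) in NPs and 461 CPM (434 to 488) in untreated ependymal cells, and the next brain class had 121 CPM in NPs (oligodendrocytes) and 155 CPM in untreated brain (pericytes or smooth muscle). A UMI of it was found in 79.2% (65.0 to 89.5) of NPs and 75.4% (69.8 to 80.4) of untreated ependymal cells, against 29.7% of NPs and 28.9% of untreated astrocytes. Median depths were 9194 and 8622 UMIs in NPs and untreated ependymal cells and 4452 and 4877 UMIs in NPs and untreated astrocytes. Thinned to 2000 UMIs the shares were 53.3% (NPs) and 50.6% (untreated) of ependymal cells and 15.3% (NPs) and 12.4% (untreated) of astrocytes.

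Rab11a, the GTPase of recycling endosomes (ENSMUSG00000004771, chr9:64715299-64737758, minus strand), was highest in endothelium, with 301 CPM (274 to 331) in NPs and 285 CPM (263 to 309) in untreated brain endothelial cells and 311 CPM (261 to 367) in NPs intestinal ones. Ehd1, which cuts recycling tubules, was highest in neutrophils with 183 CPM in NPs and 224 CPM in untreated cells, stood at 142 CPM in NPs intestinal macrophages, and was lowest in microglia with 1.83 CPM in NPs and 2.53 CPM in untreated cells. The flotillins, scaffolds of a clathrin-independent route, also peaked in neutrophils: Flot1 at 176 CPM in NPs and 219 CPM in untreated cells and Flot2 at 87.0 CPM in NPs and 57.3 CPM in untreated cells, from 37 NPs and 11 untreated UMIs. Rab5a, Rab5c and Rab7, the GTPases of early and late endosomes, were expressed in every class. Rab7 ranged from 87.8 to 186 CPM over NPs and from 74.1 to 219 CPM over untreated brain classes. Arf6, which drives a clathrin-independent recycling loop, was highest in the brain in T cells and monocytes, with 91.7 CPM in NPs and 88.1 CPM in untreated brain T cells and 83.2 CPM in NPs and 102 CPM in untreated monocytes. Intestinal levels reached as far, with 82.3 CPM in NPs and 111 CPM in untreated absorptive epithelium and 103 CPM in NPs and 70.9 CPM in untreated intestinal T cells.

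Microglia also varied by cluster. In cluster 5, led by the immediate early and inflammatory genes Atf3, Ccl4, Klf2 and Egr1, Picalm had 1075 CPM in NPs and 1045 CPM in untreated cells, and Arf6 95.7 CPM in NPs and 91.9 CPM in untreated cells. In cluster 6, led by Tyrobp and C1qa, Picalm had 736 CPM in NPs and 725 CPM in untreated cells, and Arf6 43.5 CPM in NPs and 38.5 CPM in untreated cells. Both genes were higher in cluster 5 in both libraries. For each member the class with the highest level was sought among all classes of each library. It was the same in both libraries for 22 of 34 genes in the brain, with 13 shared classes of 14 in each library. In the intestine it was the same for 4 of 34, with 8 shared classes of 10 in NPs and 12 in untreated cells. Endothelial cells and macrophages had a level in NPs intestine only. B cells, mast cells, crypt progenitors and plasmacytoid dendritic cells had a level in untreated intestine only. A gene highest in such a class could not match, so the intestinal count cannot tell a different gene order from missing classes. Picalm, Ap2a2, Dnm3, Amph, Rab7 and Rab11a overlap another annotated gene on the same strand, so how their reads were assigned is uncertain.

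Whether the genes differed between NPs and untreated mice was asked class by class. A gene was measured with at least 20 UMIs in the library with more of them and called at 1.5-fold, a size that carries no p-value. Classes with at least 50 cells in both libraries and at least 20 measured members are described, 6 in each tissue. Intestinal NK cells, with 18 measured members of which 1 was higher and 0 lower (all genes 14% and 20.4%), and neutrophils, with 15, fell short of this. Members that were not measured are left out of these counts, and a member low in 1 library had to be high in the other to be measured. Apart from pericytes or smooth muscle, each of these brain classes had fewer members past 1.5-fold than each of the intestinal ones. A smaller share of all genes passed in each of the 6 brain classes than in each of the 6 intestinal ones.

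In brain microglia 0 of 32 measured members were higher and 4 lower in NPs cells (all genes 4.99% higher and 7.37% lower). Clta, which is abundant in these cells, stood at 664 CPM in NPs and 689 CPM in untreated microglia, a ratio of 0.965 (0.946 to 0.984). Itsn1 had 4.98 CPM in NPs and 7.80 CPM in untreated microglia, 1.57-fold lower (95% interval 1.27 to 1.93), and stayed past 1.5-fold under 10 of 10 alternatives. Cavin1 had 1.05 CPM in NPs and 2.31 CPM in untreated microglia, 2.21-fold lower (1.44 to 3.43); at about 1 CPM it is far below the vascular classes. Summed endothelial markers in microglia stood at 32.4 CPM in NPs and 55.0 CPM in untreated cells, and smooth muscle markers at 5.88 CPM in NPs and 35.3 CPM in untreated cells, with 0 of 8 and 0 of 6 markers at 0 in either library; their part in the Cavin1 value was not tested. Markers of choroid plexus epithelium summed to 172 CPM in NPs and 2143 CPM in untreated microglia and erythroid markers to 159 CPM in NPs and 1058 CPM in untreated microglia, with none of the 6 and 5 markers at 0. Choroid plexus markers were also lower in NPs cells of the other brain classes described, for example at 189 CPM in NPs and 1998 CPM in untreated astrocytes and 162 CPM in NPs and 2208 CPM in untreated T cells, and the part of both lists was not tested. The median log2 ratio of the measured members was -0.06, beside 0.02 for all genes.

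In astrocytes 0 of 33 members were higher and 2 lower in NPs cells (all genes 7.23% and 4.71%). Cav1 had 0.831 CPM in NPs and 2.77 CPM in untreated astrocytes from 16 UMIs in NPs and 61 UMIs in untreated cells, 3.34-fold lower (1.90 to 6.20), and Amph 6.75 CPM in NPs and 10.2 CPM in untreated astrocytes, 1.51-fold lower (1.22 to 1.89). Smooth muscle markers in astrocytes summed to 11.2 CPM in NPs and 39.0 CPM in untreated cells and endothelial markers to 102 CPM in NPs and 151 CPM in untreated cells, with 0 of 6 and 0 of 8 markers at 0, and their part in the Cav1 value was not tested. Astrocyte counts were 0 higher and 1 to 3 lower over the alternatives at 1.5-fold. Amph stayed past 1.5-fold under 8 of 10 alternatives, and Cav1 under all of them. In brain endothelial cells 0 of 32 members were higher and 1 lower (all genes 4.96% and 7.59%). The lower one was Itsn1, with 24.7 CPM in NPs and 43.1 CPM in untreated cells, 1.75-fold lower (1.18 to 2.63), past 1.5-fold under 10 of 10 alternatives; smooth muscle markers there summed to 141 CPM in NPs and 374 CPM in untreated cells and pericyte markers to 2609.7 CPM in NPs and 1735 CPM in untreated cells, with 2 of 6 smooth muscle markers at 0 in NPs cells, and their part was not tested. The caveolar genes of these cells differed by less than 1.5-fold.

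In neuroblasts, the young migrating neurons, 0 of 28 members were higher and 1 lower (all genes 3.98% and 11.1%). Bin1 had 54.9 CPM in NPs and 100.0 CPM in untreated neuroblasts, 1.82-fold lower (1.48 to 2.25). Microglia markers in this class summed to 1333 CPM in NPs and 2523 CPM in untreated cells, and the Bin1 log2 ratio ran from -0.99 to 0.31 over the alternatives, so its direction turned. In brain T cells 2 of 24 members were higher and 0 lower (all genes 16.4% and 5.44%), and of the 2 higher ones Ap2a2 had at least 50 UMIs, with 50.0 CPM in NPs and 28.1 CPM in untreated cells, 1.78-fold higher (1.11 to 2.97). Microglia markers in brain T cells summed to 1689 CPM in NPs and 1149.8 CPM in untreated cells, and their part was not tested. In pericytes or smooth muscle, with 54 NPs and 184 untreated cells, 3 of 29 were higher and 5 lower (all genes 12.9% and 15%). Among those with at least 50 UMIs Epn2 had 104 CPM in NPs and 174 CPM in untreated cells, 1.68-fold lower (1.08 to 2.73), and Bin1 63.2 CPM in NPs and 105 CPM in untreated cells, 1.66-fold lower (0.936 to 3.15) with an interval that includes no difference. Astrocyte markers in that class summed to 2287 CPM in NPs and 1029 CPM in untreated cells, and their part was not tested. Pericyte or smooth muscle counts were 0 to 3 higher and 2 to 8 lower over the alternatives at 1.5-fold. Epn2 stayed past 1.5-fold under 8 of 9 alternatives, and Bin1 under all of them.

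In intestinal T cells 9 of 26 measured members were higher and 0 lower in NPs cells, against 22.2% higher and 14.4% lower of all genes. The median log2 ratio was 0.33 over the members and 0.10 over all genes. Eea1 had 177 CPM in NPs and 51.7 CPM in untreated T cells from 129 UMIs in NPs and 672 UMIs in untreated cells, 3.43-fold higher (95% interval 2.82 to 4.15), the largest ratio among members with at least 50 UMIs in this class. Ehd1 had 81.1 CPM in NPs and 33.2 CPM in untreated T cells, 2.44-fold higher (1.83 to 3.21), Snx9 28.9 CPM in NPs and 11.1 CPM in untreated T cells, 2.61-fold higher (1.57 to 4.14), and Rab5a 77.0 CPM in NPs and 44.1 CPM in untreated T cells, 1.75-fold higher (1.30 to 2.30). The other 5 higher members (Epn1, Picalm, Flot1, Cltb and Ap2a2) were 1.51- to 1.74-fold. The 227 NPs T cells came mostly from clusters 14 and 10, while the 3739 untreated ones were spread over clusters 7, 10, 11, 9 and 14. Within cluster 14, led by Ctla4 and Icos, Eea1 stood at 271 CPM in NPs and 141 CPM in untreated cells, and Ehd1 at 122 CPM in NPs and 48.7 CPM in untreated cells. Within cluster 10, led by Ccl5 and Gzmb, Eea1 stood at 87.6 CPM in NPs and 36.8 CPM in untreated cells, but Ehd1 at 35.8 CPM in NPs and 32.4 CPM in untreated cells. Snx9 had 49.5 CPM in NPs and 17.0 CPM in untreated cells of cluster 14. In cluster 10 it had 0 UMIs in the 76 NPs cells and 6.53 CPM in untreated cells. The 95% interval of that 0 reaches 14.7 CPM, so no difference can be read in cluster 10. Markers of absorptive epithelium summed to 2288 CPM in NPs and 647 CPM in untreated T cells and goblet markers to 2635 CPM in NPs and 919 CPM in untreated T cells, with 0 of 9 and 0 of 8 markers at 0, and their part was not tested; Eea1, Ehd1 and Snx9 stayed past 1.5-fold under all 11 alternatives and Rab5a under 10 of 11.

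In absorptive epithelium 6 of 31 members were higher and 2 lower in NPs cells (all genes 41.7% and 13%), or 6 and 8 after centring the ratios on the all-gene median. Ap2a2 had 115 CPM in NPs and 50.9 CPM in untreated cells, 2.25-fold higher (2.15 to 2.36), and Epn2 12.3 CPM in NPs and 5.04 CPM in untreated cells, 2.45-fold higher (2.12 to 2.85). Cav2 was lower, with 0.233 CPM in NPs and 6.55 CPM in untreated cells from 13 UMIs in NPs and 321 UMIs in untreated cells, 28.1-fold lower (16.2 to 53.3), and so was Rab11a, with 133 CPM in NPs and 209 CPM in untreated cells, 1.57-fold lower (1.52 to 1.62). Dnm1 had 52 UMIs in NPs and 1 UMI in untreated cells, at 0.933 CPM in NPs and 0.0204 CPM in untreated cells, a ratio of 45.8 (7.86 to 1842). The remaining higher members, Amph with 41 and 0 UMIs, Dab2 with 22 and 1 and Cavin1 with 42 and 17 in NPs and untreated cells, were also under 1 CPM. Cav2 also varied among the untreated clusters. It had 0 and 0.468 CPM in NPs clusters 21 and 22, against 11.5, 2.54 and 0.203 CPM in untreated clusters 3, 4 and 5, so that NPs cluster 22 and untreated cluster 5 were both under 1 CPM. Absorptive markers themselves summed to 20058 CPM in NPs and 7259 CPM in untreated cells, and with the Hox shares above, position along the gut and treatment cannot be told apart here. Absorptive counts were 3 to 11 higher and 2 to 8 lower over the alternatives at 1.5-fold. Rab11a stayed past 1.5-fold under 7 of 10 alternatives, and Ap2a2, Epn2, Dnm1 and Cav2 under all of them.

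In goblet cells, which secrete mucus, 3 of 28 members were higher and 3 lower (all genes 25.2% and 12.6%; 1 and 4 after centring). Dnm2 had 92.0 CPM in NPs and 52.2 CPM in untreated cells, 1.76-fold higher (1.61 to 1.94), Cltb 205 CPM in NPs and 125 CPM in untreated cells, 1.65-fold higher (1.55 to 1.75), and Epn1 124 CPM in NPs and 76.5 CPM in untreated cells, 1.62-fold higher (1.4999 to 1.76). Cav2 was again lower, with 0.877 CPM in NPs and 5.97 CPM in untreated cells, 6.81-fold lower (4.27 to 11.1). Flot2 had 5.64 CPM in NPs and 10.0 CPM in untreated cells, 1.78-fold lower (1.38 to 2.28), a direction that turned when each cell weighed the same, and Eps15 17.8 CPM in NPs and 27.3 CPM in untreated cells, 1.53-fold lower (1.32 to 1.77). NPs goblet cells came from clusters 24 and 23 and untreated ones from cluster 6, with median depths of 4722 and 2056 UMIs. Absorptive markers in goblet cells summed to 3488 CPM in NPs and 1527 CPM in untreated cells, and their part was not tested. Goblet cell counts were 1 to 8 higher and 2 to 4 lower over the alternatives at 1.5-fold. Cltb stayed past 1.5-fold under 9 of 11, Epn1 under 9 of 11, Flot2 under 9 of 11 and Eps15 under 7 of 11, and Dnm2 and Cav2 under all of them.

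In enteroendocrine cells, which make gut hormones, 9 of 26 members were higher and 1 lower (all genes 31.3% and 9.99%; 5 and 1 after centring). Cltb had 132 CPM in NPs and 66.2 CPM in untreated cells, 1.99-fold higher (1.47 to 2.71), Eea1 116 CPM in NPs and 58.9 CPM in untreated cells, 1.97-fold higher (1.43 to 2.74), and Dnm2 102 CPM in NPs and 56.8 CPM in untreated cells, 1.80-fold higher (1.29 to 2.53). Rab5a had 93.5 CPM in NPs and 53.6 CPM in untreated cells, 1.74-fold higher (1.24 to 2.48). Absorptive markers summed there to 10893 CPM in NPs and 1800.5 CPM in untreated cells while enteroendocrine markers summed to 36372 CPM in NPs and 116902 CPM in untreated cells. Enteroendocrine counts were 5 to 11 higher and 0 to 2 lower over the alternatives at 1.5-fold. Eea1 stayed past 1.5-fold under 9 of 10, Dnm2 under 9 of 10 and Rab5a under 9 of 10, and Cltb under all of them. In fibroblasts 8 of 31 were higher and 1 lower (all genes 31.8% and 10.2%; 4 and 2 after centring). Ap2a1 had 33.8 CPM in NPs and 14.1 CPM in untreated cells, 2.40-fold higher (0.967 to 7.68) with an interval that includes no difference, Epn2 50.1 CPM in NPs and 22.6 CPM in untreated cells, 2.22-fold higher (1.07 to 5.32), Ap2a2 116 CPM in NPs and 53.6 CPM in untreated cells, 2.16-fold higher (1.35 to 3.67), and Epn1 108 CPM in NPs and 56.4 CPM in untreated cells, 1.91-fold higher (1.20 to 3.20). Their untreated values rest on 5 to 20 UMIs, and absorptive markers in fibroblasts summed to 8111 CPM in NPs and 2289 CPM in untreated cells. The part of these epithelial markers was not tested in either class. Fibroblast counts were 4 to 14 higher and 0 to 4 lower over the alternatives at 1.5-fold. Epn1 stayed past 1.5-fold under 4 of 8 alternatives, and Ap2a1, Epn2 and Ap2a2 under all of them. Cav1, Cavin1 and Cavin2 of fibroblasts differed by less than 1.5-fold between the libraries.

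In plasma cells 2 of 23 members were higher and 4 lower (all genes 10.5% and 27.8%; 4 and 2 after centring). Immunoglobulin genes took 52.9% of UMIs in NPs and 41.6% in untreated plasma cells, and with them left out of the totals, an alternative chosen after seeing the data, 4 members were higher and 1 lower. Snx9 had 17.4 CPM in NPs and 31.7 CPM in untreated cells, 1.82-fold lower (1.10 to 3.18), and Sh3gl1 13.7 CPM in NPs and 22.8 CPM in untreated cells, 1.66-fold lower (0.929 to 3.15) with an interval that includes no difference. Plasma cell counts were 0 to 5 higher and 1 to 7 lower over the alternatives at 1.5-fold. Snx9 stayed past 1.5-fold under 9 of 11 and Sh3gl1 under 9 of 11. Summed B cell markers in plasma cells stood at 451 CPM in NPs and 1516 CPM in untreated cells, monocyte markers at 817 CPM in NPs and 2127 CPM in untreated cells and mast cell markers at 8.24 CPM in NPs and 192 CPM in untreated cells. At 0 in NPs and untreated cells were 3 and 0 of 7 B cell, 3 and 2 of 6 monocyte and 6 and 2 of 10 mast cell markers, and the part of these markers in the counts was not tested.

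**Figure D5:**
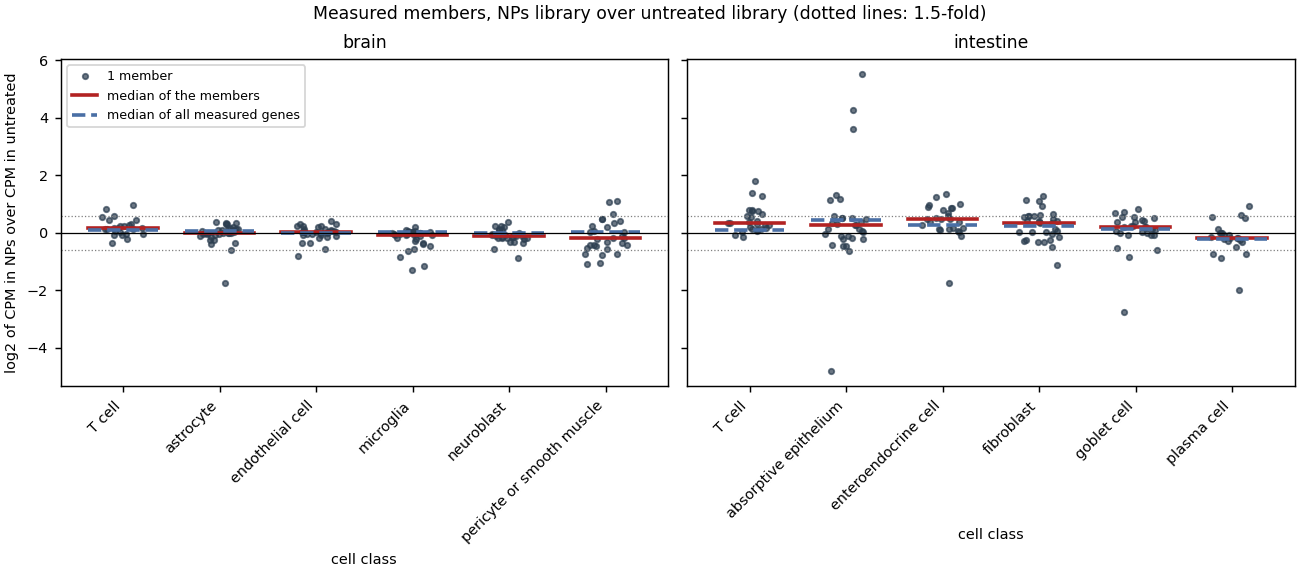
log2 of CPM in NPs over CPM in untreated cells for each measured member (points) in the 12 classes described, with the median of the members (red line), the median of all measured genes (dashed blue line) and the 1.5-fold limits (dotted). Most brain points lie within the 1.5-fold limits, while intestinal medians of both members and all genes lie above 0 except in plasma cells.

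The rest of the pathway was read from 59 other endocytosis genes and 20 uptake receptors, by the same rule and against the same backgrounds. Of the 59, absorptive epithelium had 12 of 49 higher and 3 lower, goblet cells 10 of 48 higher and 2 lower, enteroendocrine cells 12 of 38 higher and 3 lower, fibroblasts 12 of 46 higher and 4 lower, intestinal T cells 10 of 45 higher and 2 lower and plasma cells 4 of 31 higher and 7 lower in NPs cells. In the brain the counts were 0 of 51 higher and 3 lower in microglia, 0 of 54 higher and 2 lower in astrocytes, 2 of 46 higher and 1 lower in endothelial cells, 1 of 49 higher and 2 lower in neuroblasts, 6 of 41 higher and 2 lower in T cells and 6 of 37 higher and 5 lower in pericytes or smooth muscle. Rabep1, an effector that keeps Rab5 active, had 38.2 CPM in NPs and 8.44 CPM in untreated absorptive cells, 4.53-fold higher (4.07 to 5.04), and 57.5 CPM in NPs and 21.1 CPM in untreated goblet cells, 2.72-fold higher (2.36 to 3.15). Fcho1, which starts clathrin pits, had 2.87 CPM in NPs and 0.693 CPM in untreated absorptive cells, 4.14-fold higher (2.85 to 6.19), and Sh3gl2, endophilin A1, 29.7 CPM in NPs and 8.22 CPM in untreated absorptive cells, 3.61-fold higher (3.23 to 4.03). In the other direction Rab31 had 1.26 CPM in NPs and 4.53 CPM in untreated absorptive cells, 3.60-fold lower (2.74 to 4.78), and Ehd4 28.6 CPM in NPs and 57.5 CPM in untreated absorptive cells, 2.01-fold lower (1.89 to 2.14). In intestinal T cells Clint1, an epsin of endosomes and Golgi, had 164 CPM in NPs and 85.5 CPM in untreated cells, 1.91-fold higher (1.57 to 2.31), and Vps35, the core of the retromer, 27.5 CPM in NPs and 55.2 CPM in untreated cells, 2.01-fold lower (1.29 to 3.31).

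Of the receptors absorptive epithelium had 9 of 11 higher and 1 lower, goblet cells 6 of 9 higher and 0 lower and enteroendocrine cells 4 of 5 higher and 0 lower, against the same shares of all genes as above (41.7%, 25.2% and 31.3% higher). Fibroblasts had 2 of 9 higher and 0 lower (all genes 31.8% and 10.2%), intestinal T cells 1 of 8 higher and 0 lower (22.2% and 14.4%) and plasma cells 0 of 5 higher and 1 lower (10.5% and 27.8%). In the brain microglia had 3 of 13 higher and 2 lower (4.99% and 7.37%), astrocytes 2 of 11 higher and 0 lower (7.23% and 4.71%) and endothelial cells 1 of 10 higher and 1 lower (4.96% and 7.59%). Neuroblasts had 1 of 10 higher and 1 lower (3.98% and 11.1%), brain T cells 3 of 7 higher and 1 lower (16.4% and 5.44%) and pericytes or smooth muscle 1 of 8 higher and 1 lower (12.9% and 15%). Colec12, described further below, belongs to this receptor list. The same gene is counted as higher in microglia, astrocytes, neuroblasts and brain T cells, and it is the only higher receptor in neuroblasts. Cubn and Amn, the 2 chains of the receptor that takes up vitamin B12 with intrinsic factor, had 3.37 CPM in NPs and 0.122 CPM in untreated and 17.5 CPM in NPs and 0.653 CPM in untreated absorptive cells. These are 27.6-fold higher (12.4 to 76.1) for Cubn and 26.8-fold higher (18.8 to 39.3) for Amn, with 188 UMIs in NPs and 6 UMIs in untreated cells for Cubn. In enteroendocrine cells Tfrc, the transferrin receptor whose uptake runs through clathrin pits, had 77.0 CPM in NPs and 39.9 CPM in untreated cells, 1.93-fold higher (1.31 to 2.90). These receptor counts come from the same libraries and clusters as the members, so position along the gut and treatment cannot be told apart for them either.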

How the data were processed

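The deposited files hold whole-number UMI counts per gene and barcode for 4 libraries, made by the authors with Cell Ranger 5.0.1 on GRCm38, per the submitters' processing notes; filters used before deposit are not given in the sources used here. A barcode was kept as a cell with 500 or more UMIs from 200 or more genes and a mitochondrial share of up to 20%. Scrublet (scanpy 1.11.5) removed 2.03% of NPs and 2.87% of untreated brain barcodes as doublets by its own threshold; in the intestine, where that threshold marked too few, a score of 0.25 removed 0.855% of NPs and 0.660% of untreated barcodes. Both libraries of each tissue went into a joint clustering (2000 variable genes without endocytosis genes, 30 principal components, 15 neighbours, Leiden resolution 1). A marker counted for a cluster when it stood 2-fold above the median cluster and was found in at least 20% of cells. Clusters took the class with the largest share of such markers, with at least 3 needed. A cluster stayed unnamed when classes tied or when its 10 leading genes held as many markers of another class. Shallow clusters without own markers among their leading genes also stayed unnamed.

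UMIs were summed per class and library to CPM with exact 95% Poisson intervals; ratios carry conditional binomial and shares Clopper-Pearson intervals (scipy 1.17.1). All cover counting error only, and no test was possible. A count of 0 was replaced by 3 counts for a bound. Named between libraries were up to 4 largest and 4 smallest ratios per class among members with 50 UMIs past 1.5-fold, and up to 3 each way of the other lists. Values of 1 uptake receptor are not reported here. The steps were tested on simulated data. The 34 genes and all lists were chosen with earlier results of these data known. RefSeq promoters were matched for 29 of the 34 symbols. Alternatives changed the filters, doublets, resolution, clustering, weighting, thinning, centring, UMI minimum and fold.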

Additional observations from a re-analysis of the deposited data

How the results depend on the processing

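The counts of members high in a class (14 in the brain, 7 in the intestine) held under every alternative run for them. Of the other counts and these together, 241 values stayed within 1.5 times and 85 did not, most of them counts of 0 to 5 that move by 1 or 2 genes. With no mitochondrial limit, higher members numbered 5 in goblet cells while lower members numbered 1 in intestinal T cells, 1 in astrocytes and 2 in endothelial cells. With doublets kept, higher members numbered 5 in goblet cells while lower members numbered 1 in intestinal T cells, 4 in absorptive epithelium, 0 in intestinal fibroblasts, 2 in brain T cells and 2 in endothelial cells. With resolution 2, higher members numbered 4 in plasma cells while lower members numbered 1 in intestinal T cells, 4 in absorptive epithelium and 2 in endothelial cells. With each library clustered on its own, higher members numbered 6 in goblet cells, 4 in plasma cells and 2 in neuroblasts while lower members numbered 2 in intestinal T cells, 4 in absorptive epithelium and 2 in neuroblasts. With a 2-fold call, higher members numbered 3 in intestinal T cells, 2 in enteroendocrine cells, 3 in intestinal fibroblasts, 0 in goblet cells, 0 in plasma cells and 0 in brain T cells while lower members numbered 1 in absorptive epithelium, 1 in goblet cells, 1 in plasma cells, 1 in astrocytes, 0 in endothelial cells, 2 in microglia, 0 in neuroblasts and 2 in pericytes or smooth muscle. With each cell weighing the same, higher members numbered 11 in absorptive epithelium, 14 in intestinal fibroblasts and 8 in goblet cells while lower members numbered 4 in absorptive epithelium, 2 in enteroendocrine cells, 7 in plasma cells, 1 in astrocytes, 2 in endothelial cells, 2 in neuroblasts and 8 in pericytes or smooth muscle. With ratios centred on the all-gene median, higher members numbered 5 in enteroendocrine cells, 4 in intestinal fibroblasts, 1 in goblet cells and 4 in plasma cells while lower members numbered 8 in absorptive epithelium, 2 in intestinal fibroblasts and 2 in plasma cells. With at least 50 UMIs per gene, higher members numbered 3 in absorptive epithelium, 5 in enteroendocrine cells, 0 in plasma cells, 1 in brain T cells and 0 in pericytes or smooth muscle while lower members numbered 0 in enteroendocrine cells, 0 in intestinal fibroblasts, 2 in plasma cells, 2 in microglia and 2 in pericytes or smooth muscle. With no UMI minimum, higher members numbered 5 in plasma cells and 2 in neuroblasts while lower members numbered 2 in enteroendocrine cells, 2 in intestinal fibroblasts, 2 in brain T cells and 3 in neuroblasts. With a limit of 10% mitochondrial UMIs, higher members numbered 14 in intestinal fibroblasts and 1 in plasma cells while lower members numbered 0 in intestinal fibroblasts and 0 in neuroblasts. With at least 1000 UMIs per barcode, higher members numbered 5 in goblet cells and 4 in plasma cells while lower members numbered 0 in intestinal fibroblasts and 0 in neuroblasts. With resolution 0.5, higher members numbered 1 in pericytes or smooth muscle while lower members numbered 4 in intestinal fibroblasts and 3 in pericytes or smooth muscle. With equal totals by thinning, higher members numbered 1 in brain T cells while lower members numbered 0 in intestinal fibroblasts, 2 in plasma cells, 2 in endothelial cells and 3 in pericytes or smooth muscle. With immunoglobulin UMIs left out, higher members numbered 4 in plasma cells while lower members numbered 1 in plasma cells. Of single genes 384 log2 ratios moved by less than their counting interval, 49 moved by more and 6 changed sign. Bin1 in neuroblasts was 0.311 with the 10% limit, 0.0954 with 1000 UMIs and 0.0644 at resolution 2. Ap2a2 in enteroendocrine cells was -0.0652 with the 10% limit, Flot1 in intestinal fibroblasts -0.0110 at resolution 0.5 and Flot2 in goblet cells 0.176 with cells weighted alike. The causes were not tested. Of 44 calls of a member in a class, 20 stayed past 1.5-fold under every alternative run for them. Leaving out immunoglobulin UMIs and leaving out clusters with a median under 2000 UMIs were chosen after seeing the data. No paired analysis was possible because each group is 1 library, and none could be left out. Depth limits the low genes most: a gene with 20 UMIs in a class has a wide counting interval, and small classes hold few measured members.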

Other observations

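Colec12, a scavenger receptor of the collectin family, set the brain libraries apart in astrocytes, microglia, neuroblasts, T cells and neutrophils. Over 14 classes with a level it had 60.5 to 1424 CPM in NPs and 0 to 1149 CPM in untreated brain, with medians of 329 CPM in NPs and 15.4 CPM in untreated brain. Astrocytes had 1424 CPM in NPs and 21.3 CPM in untreated cells, 66.8-fold higher (61.0 to 73.4). Microglia had 392 CPM in NPs and 2.85 CPM in untreated cells, 138-fold higher (111 to 174), neuroblasts 341 CPM in NPs and 1.73 CPM in untreated cells and T cells 289 CPM in NPs and 7.66 CPM in untreated cells. Brain fibroblasts, by contrast, had 1289.9 CPM in NPs and 1149 CPM in untreated cells. Neutrophils had 148 UMIs in NPs and 0 UMIs in untreated cells, at least 22.3-fold higher in NPs cells when the untreated count of 0 is taken as 3. In the intestine fibroblasts had 142 CPM in NPs and 127 CPM in untreated cells, and NPs macrophages 36.9 CPM. Fibroblasts thus differed by less than 1.5-fold in either tissue, and with 1 library per group no difference was tested.

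An intestinal cluster of 133 NPs cells led by Acta2, Tagln, Myh11 and Des, genes of smooth muscle, met no name by the marker rule and was left out of the classes. It held 101 CPM of Cav1, 23.9 CPM of Cav2, 245 CPM of Cavin1 and 37.3 CPM of Cavin2, so Cavin1 stood well above Cavin2, as in brain pericytes or smooth muscle. The unnamed cluster of 58 untreated cells with Lyz2, C1qa and C1qb among its leading genes had a median of 1097.5 UMIs. Its levels were 330 CPM (209 to 495) of Clta, 129 CPM (59.0 to 245) of Picalm and 28.7 CPM (3.47 to 104) of Dab2, the last from 2 UMIs.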
